A study of Mus musculus with 43 samples.

Results

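The Toll-like receptor family was followed as 10 genes, Tlr1, Tlr2, Tlr3, Tlr4, Tlr5, Tlr6, Tlr7, Tlr8, Tlr9 and Tlr13, through 7 groups of sorted mouse bone marrow libraries, 43 in all. The genes were taken by name, and each matched 1 gene identifier of the deposited tables. Wild-type CD45.1 mice had received 5000000 whole marrow cells that carried CD45.2 and the activating kinase variant JAK2V617F, with no conditioning, so that the hosts kept their own blood system; control mice were wild-type CD45.1 animals matched for age and sex that received no marrow. About 7 months later 3 kinds of CD45-sorted library were made: host CD45.1 cells of transplanted mice (n = 7; 3 female, 4 male), transplanted CD45.2 donor cells from the same 7 mice, and CD45.1 cells of controls (n = 8; 4 of each sex). Stroma-enriched cells, negative for CD45 and for lineage markers, came from the same 7 transplanted mice and from 8 controls. CD11b-positive host CD45.1 cells were taken at 52 weeks from other male mice, 3 transplanted and 3 control. The age of the mice is not given in the sources used here. There was no transplant of unmutated marrow, so effects of the mutation and of transplantation itself cannot be told apart.

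Toll-like receptors recognise microbial molecules and some molecules of damaged cells. Tlr4 binds lipopolysaccharide together with MD-2, Tlr2 binds lipoproteins as a pair with Tlr1 or Tlr6, and Tlr5 binds flagellin, all at the cell surface; Tlr3, Tlr7, Tlr8, Tlr9 and Tlr13 sit in endosomes and read nucleic acids. Most signal through the adaptor Myd88 to NF-kB and interferon regulatory factors, and in marrow they are best known from monocytes, neutrophils, dendritic cells and B cells, with some on progenitors.

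The promoters of the members that changed in donor cells are shown beside that of the most abundant member, to let the upstream sequence be read next to the values. They come from RefSeq on build GRCm38.p6, which differs from the GRCm39 build of the files, and 8 of the 10 members had an entry, all but Tlr4 and Tlr7. Tlr1 had 2 windows, and the one shown is the one that holds the letters in capitals; the other holds none. Each is the 250 bases before the annotated start, written in the direction of the gene, with GAGGAA, the core letters of sites for the myeloid and B-cell factor PU.1, in capitals on either strand.
Tlr9, chr9:106222348-106222597, plus strand: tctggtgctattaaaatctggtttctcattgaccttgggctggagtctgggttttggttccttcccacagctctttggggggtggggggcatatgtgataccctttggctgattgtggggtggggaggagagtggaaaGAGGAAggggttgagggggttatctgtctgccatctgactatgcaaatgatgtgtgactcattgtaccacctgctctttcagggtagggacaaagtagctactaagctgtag
Tlr13, chrX:106143025-106143274, plus strand: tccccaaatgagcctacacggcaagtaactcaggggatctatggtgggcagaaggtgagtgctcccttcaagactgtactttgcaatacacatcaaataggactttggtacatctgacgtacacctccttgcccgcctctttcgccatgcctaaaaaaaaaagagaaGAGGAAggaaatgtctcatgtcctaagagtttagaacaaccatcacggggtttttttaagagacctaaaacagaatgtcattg
Tlr1, chr5:64933559-64933808, minus strand: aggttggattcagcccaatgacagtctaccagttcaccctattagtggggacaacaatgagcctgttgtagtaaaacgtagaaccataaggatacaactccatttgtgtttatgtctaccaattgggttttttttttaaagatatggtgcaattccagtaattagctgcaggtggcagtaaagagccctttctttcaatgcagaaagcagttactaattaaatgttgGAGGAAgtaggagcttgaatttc
Tlr2, chr3:83841609-83841858, minus strand: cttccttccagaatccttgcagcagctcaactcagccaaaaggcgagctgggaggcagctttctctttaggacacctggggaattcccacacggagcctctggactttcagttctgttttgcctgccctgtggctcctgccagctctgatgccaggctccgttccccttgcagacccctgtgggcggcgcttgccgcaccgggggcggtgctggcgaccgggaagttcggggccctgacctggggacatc
The core was found in 4 of the 8 members (Tlr1, Tlr8, Tlr9 and Tlr13) and in 4 of their 10 windows, against 23.3% of 32851 windows of the same length. The GC box GGGCGG was found in 2 members, Tlr2 and Tlr5, and in 2 of 10 windows, against 32.7% of all windows. Other letters were also sought. Those of C/EBP sites were in 3 of 10 windows, against 9.6% of all windows, and the TATA box in 2, against 12.4%. AP-1 letters were in 1, against 6.7%, and NF-kB letters in 1, against 1.4%. A match is a description of letters and was not tested as a site.

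Depth was 15713119 to 19683698 counts per CD45-sorted library, 32478800 to 44853593 per CD11b library and 41210646 to 143228988 per stroma library. The labelled cell types were checked by defining genes. Ptprc, which encodes CD45, stood at 228.2 to 375.5 TPM (a level per transcript length, scaled to the same total in every library) in the CD45 and CD11b sorts and at 15.12 to 91.89 TPM in stroma. Cxcl12, the chemokine of stromal cells, stood at 455.9 to 3797 TPM in stroma and at most at 2.05 TPM elsewhere, so the stroma libraries were rich in stromal RNA but still held RNA of CD45 cells. The labels of 1 library disagree: N204's CD45.2 sample is donor in its title and recipient in another field, and was kept as donor. Each library is 1 animal by its label. Donor libraries carry the same sex label as the host library of their mouse, and the sex of the donor cells themselves was not checked. In bulk RNA fewer cells of a type and less RNA per cell cannot be told apart.

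The 10 genes spanned a wide range of levels, and their order differed between sorts. Tlr2 had the highest mean in all 7 groups, with overlap with the next member in CD11b cells and in stroma of transplanted mice. In CD45-sorted libraries it stood at 140.3 ± 26.0 TPM in controls (SD, n = 8), 151.6 ± 14.3 in host cells (n = 7) and 141.7 ± 10.8 in donor cells (n = 7). It made up 65.1 to 67.2% of the summed TPM of the family in those groups, 53.8 to 54.1% in stroma and 30.6 to 31.1% in CD11b cells. Tlr13, a mouse receptor for bacterial ribosomal RNA, was second in the CD45 and CD11b sorts, at 31.2 ± 4.15 TPM in CD45.1 controls and 49.4 ± 3.50 TPM in CD11b controls (n = 3). In controls of the CD45 sort Tlr4 came next (10.8 ± 1.63 TPM), with no overlap with Tlr13, and Tlr8, Tlr6, Tlr7, Tlr9, Tlr5 and Tlr1 followed, each overlapping the next. Tlr3 came last, at 0 to 9 counts per CD45-sorted library, too few to be tested there.

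Stroma had another order, with Tlr3 among its leading members. Tlr3, the receptor for double-stranded RNA, stood at 5.20 ± 1.16 TPM in control stroma (n = 8) and 5.35 ± 2.40 TPM in stroma of transplanted mice (n = 7), and at 0.134 ± 0.0923 TPM in CD45.1 controls. The lowest control stroma library (3.30 TPM) lay above every library of the other sorts, while the stroma library of transplanted animal N032 (0.405 TPM) did not. Tlr9, the receptor for unmethylated DNA, went the other way, at 0.0600 ± 0.0405 TPM in control stroma and 4.87 ± 1.35 TPM in CD45.1 controls. An antisense gene overlaps Tlr3 exons in the annotation read here, and the strand setting of the counting is not stated, so its level may include reads of that gene. Sorts differed in library kit, age of the transplant and gate, and no test of levels was made between them.

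**Figure D1:**
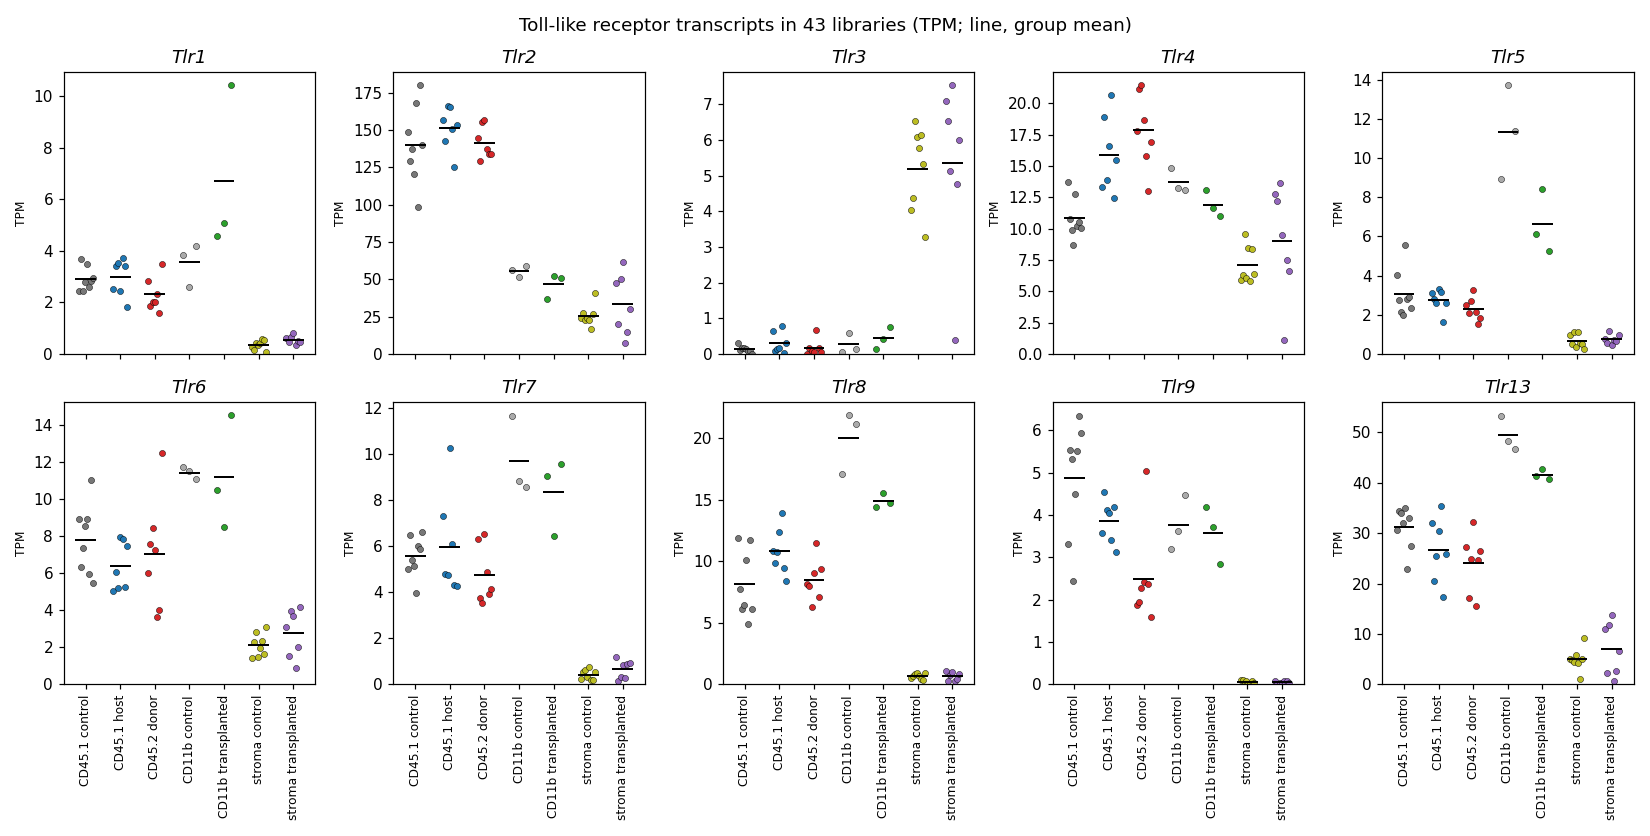
Level of each Toll-like receptor gene in TPM (linear axes starting at 0, a scale per gene), for the 7 groups; points are libraries and lines group means. Tlr2 has the highest scale, Tlr3 is high in stroma alone among the sorts plotted (5.20 TPM in control stroma), and Tlr9 is near 0 there.

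Host cells beside the mutant graft differed from control cells at 1 member, Tlr4, which rose. Of 9 members tested 1 was higher and 0 lower (edgeR's quasi-likelihood test, Benjamini-Hochberg adjusted p below 0.05 over all genes), against 16.4% of 14073 genes called, 8.61% higher and 7.82% lower. The median log2 fold change of the 9 was -0.03, and that of all genes 0.008. Values below are CPM, counts relative to the library total as scaled by TMM within a sort, and a log2 fold change compares groups of that gene.

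Tlr4 stood at 25.0, 27.3 and 36.2 CPM in controls (lowest, median and highest of 8) and at 31.2, 38.0 and 60.5 CPM in host cells (of 7). The groups overlapped: all 7 host libraries lay above the control median and 4 above the highest control, that of N277, with animal N269 the highest. The log2 fold change was 0.55 ± 0.13 (SE; 95% interval 0.28 to 0.83; edgeR adjusted p = 0.00923). The call held with each library left out in turn (0.41 to 0.63) and with day of euthanasia as a block (0.65, edgeR adjusted p = 0.0222). It did not hold in males alone (0.52, edgeR adjusted p = 0.0583) or females alone (0.58, edgeR adjusted p = 0.221). The block compares mice killed on the same day, and its group difference rests on 5 such pairs of transplanted and control mice. Summed monocyte markers (12 genes) ran from 2706 to 3388 CPM in controls and 3092 to 3374 in host cells, with overlap. By edgeR 6 of these 12 genes were higher and 1 lower in host cells, against 8.61% and 7.82% of all genes. Macrophage markers (14 genes) ran from 237.4 to 276.8 and 318.6 to 371.4, without overlap. Neutrophil precursor markers (8 genes) ran from 4938 to 9034 and 7542 to 12180, with overlap. Mature neutrophil markers (14 genes) ran from 40390 to 62440 and 26200 to 76640, with overlap. The part of these sums in the result was not tested.

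The other surface members did not pass in host cells. Tlr2 differed by 0.07 ± 0.11 (log2 fold change ± SE), with a 95% interval of -0.16 to 0.31. Tlr1 differed by 0.11 ± 0.15, Tlr5 by -0.05 ± 0.19 and Tlr6 by -0.35 ± 0.16 (edgeR adjusted p = 0.150). Tlr1 and Tlr6 are neighbouring copies with near-identical stretches, so reads may be divided between them.

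The nucleic acid receptors gave values on either side of 0. Tlr8, a receptor for RNA, stood at 9.35, 13.6 and 20.3 CPM in controls and 14.7, 17.2 and 26.0 in host cells (lowest, median, highest), a log2 value of 0.38 ± 0.16 (edgeR adjusted p = 0.0994). All 7 host libraries lay above the control median, and the groups overlapped. Tlr9 stood at 7.69, 13.7 and 15.9 CPM in controls and 7.59, 9.61 and 10.5 in host cells, a log2 value of -0.39 ± 0.15 (edgeR adjusted p = 0.0898). All 7 host libraries lay below the control median while controls N277 and N051 lay as low as host cells. With day of euthanasia as a block Tlr9 passed (-0.48, edgeR adjusted p = 0.0333). Control N051 had no transplanted mouse of its day, so it did not bear directly on the group difference of that fit. Tlr13 (-0.28 ± 0.14) and Tlr7 (-0.03 ± 0.10), a receptor for single-stranded RNA, did not pass.

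**Figure D2:**
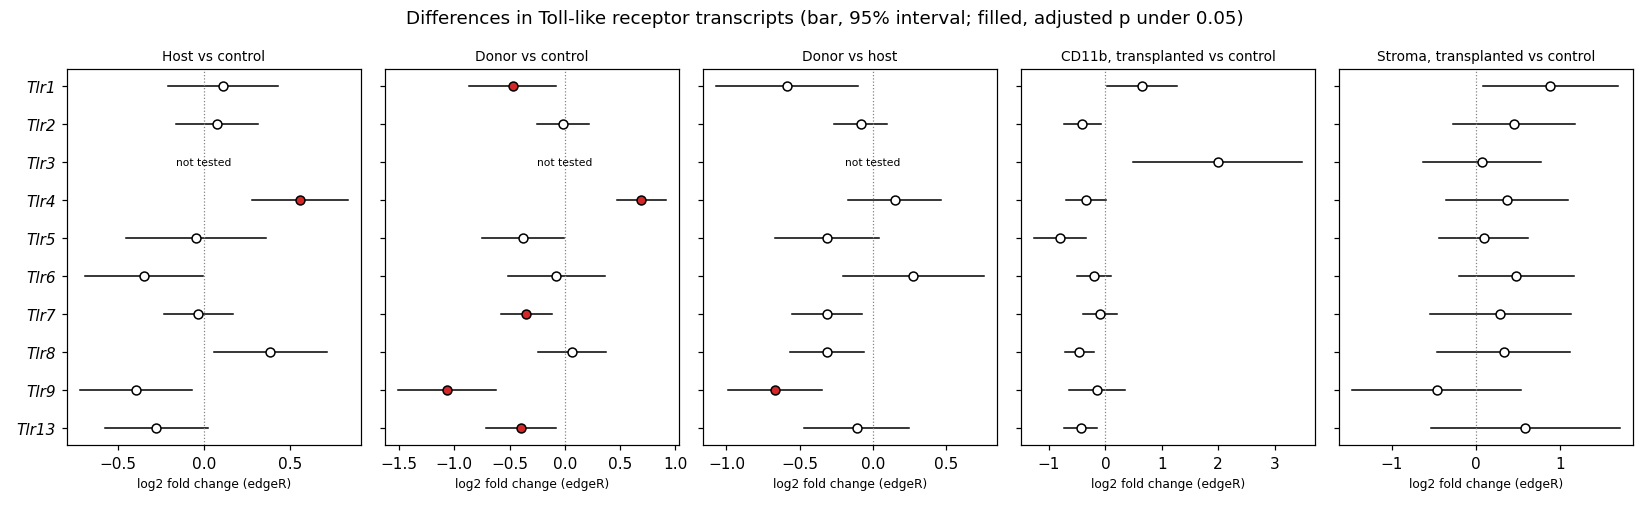
Log2 fold change of each member from edgeR in 5 comparisons, with its 95% interval (bar); filled points passed an adjusted p of 0.05, and each panel has its own axis scale. Tlr4 is filled in host and donor cells against controls (0.55 and 0.69), Tlr9 in donor cells against controls and host (-1.07 and -0.67), and none in CD11b cells or stroma.

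Donor JAK2V617F cells differed from control cells at 5 members: Tlr4 rose, and Tlr9, Tlr7, Tlr13 and Tlr1 fell. That is 1 higher and 4 lower of 9 tested, in a comparison in which 45.7% of 13906 genes were called, 22.7% higher and 23% lower. The median log2 fold change of the 9 was -0.35, and that of all genes -0.001. Host and donor cells were set against the same 8 control libraries, so the 2 comparisons are not independent.

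Tlr4 stood at 33.5, 49.7 and 53.3 CPM in donor cells (lowest, median, highest of 7), above the 25.0 to 36.2 CPM of controls in 6 of 7 libraries. The donor library of N279 was the one inside the control range. The log2 fold change was 0.69 ± 0.11 (95% interval 0.47 to 0.92; edgeR adjusted p = 4.7e-05), and every alternative, each sex alone included, and every library left out kept the call (0.58 to 0.79). Summed monocyte markers ran from 2737 to 3145 CPM in donor cells, within the control range. By edgeR 4 of these 12 genes were higher and 3 lower in donor cells, against 22.7% and 23% of all genes. Macrophage markers ran from 292.6 to 354.9 CPM, above the control range. Neutrophil precursor markers ran from 9536 to 14440 CPM, also above the control range. Mature neutrophil markers ran from 22990 to 71000 CPM, overlapping it. The part of these sums in the result was not tested.

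Tlr9 showed the largest difference of the members tested in donor cells. It stood at 4.38, 5.20 and 10.7 CPM in donor cells against 7.69, 13.7 and 15.9 in controls (lowest, median, highest). 6 of 7 donor libraries lay below the lowest control, and that of N005 lay within the control range. The log2 fold change was -1.07 ± 0.21 (95% interval -1.51 to -0.62; edgeR adjusted p = 5.14e-04); it passed with each library left out and in females alone (-1.46, adjusted p = 0.00141), but not in males alone (-0.75, adjusted p = 0.0632). The summed levels of 12 B-cell markers were 14.3 to 49.8 CPM in donor cells, 380.5 to 1130 in controls and 135.8 to 539 in host cells; those of 10 plasmacytoid dendritic cell markers were 180.4 to 234.8, 325.9 to 501 and 253.9 to 348.5 CPM. B cells and plasmacytoid dendritic cells are known for Tlr9 and Tlr7, and the part of these sums in the result was not tested.

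Tlr7, Tlr13 and Tlr1 changed by less, and their calls depended on the setting. Tlr7 stood at 7.96, 9.99 and 12.5 CPM in donor cells and 10.4, 13.9 and 14.7 in controls, with 4 of 7 donor libraries below the lowest control (log2 -0.35 ± 0.11, edgeR adjusted p = 0.0140); it passed with each library left out but not on deposited TPM (-0.21, adjusted p = 0.247) or in males alone (-0.29, adjusted p = 0.260). Tlr13 stood at 39.3, 64.1 and 91.9 CPM in donor cells and 60.7, 91.4 and 102.3 in controls (log2 -0.39 ± 0.15, edgeR adjusted p = 0.0413); the groups overlapped, and the call held in 5 of 15 fits that left out a library. With day of euthanasia as a block its value was -0.18 (adjusted p = 0.0250), and it did not pass on TPM with a pseudocount of 0.1 (adjusted p = 0.0512), in males alone (adjusted p = 0.144) or in females alone (adjusted p = 0.105). Tlr1 stood at 2.39, 3.71 and 7.22 CPM in donor cells and 5.00, 5.40 and 7.23 in controls, with 6 of 7 donor libraries below the lowest control and N269 just under the highest control (log2 -0.47 ± 0.19, edgeR adjusted p = 0.0476). Its call held in 2 of 15 fits that left out a library, reached -0.73 (adjusted p = 3.58e-04) without donor library N269, and was lost with the day as a block (adjusted p = 0.0997), on TPM with a pseudocount of 1 (-0.25, adjusted p = 0.108) and in females alone (-0.39, adjusted p = 0.407).

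The members that did not pass in donor cells were Tlr2 (-0.01 ± 0.11, 95% interval -0.25 to 0.22), Tlr6 (-0.07 ± 0.21), Tlr8 (0.07 ± 0.15) and Tlr5 (-0.38 ± 0.18, edgeR adjusted p = 0.0902), all log2 fold changes.

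Within animals, donor cells were lower than host cells at Tlr9, and at 3 more members once the animal was fitted. In the fit without the animal 1 of 9 members passed, Tlr9, lower, against 14.1% of 13662 genes, 4.17% higher and 9.94% lower. Tlr9 stood at 7.59, 9.61 and 10.5 CPM in host cells and 4.38, 5.20 and 10.7 in donor cells of the same mice, and the donor value was lower in 6 of 7 animals, all but N005. Its log2 fold change was -0.67 ± 0.15 (95% interval -0.99 to -0.34; edgeR adjusted p = 0.00650), and it did not pass in males alone (-0.54, adjusted p = 0.230), where Tlr1 was the member called, or in females alone (-0.81, adjusted p = 0.0508). With the animal as a block 4 members were lower, Tlr9 (-0.69, adjusted p = 9.06e-04), Tlr1 (-0.61, adjusted p = 7.52e-04), Tlr8 (-0.31, adjusted p = 0.00317) and Tlr7 (-0.32, adjusted p = 0.0261), in a fit that called 15.2% of all genes higher and 18.5% lower, 4605 in all against 1928 without the block.

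Tlr1 and Tlr8 were lower in donor than in host cells in all 7 animals, and Tlr7 in 5 of 7. Tlr8 stood at 14.7, 17.2 and 26.0 CPM in host cells and 11.5, 14.2 and 18.8 CPM in donor cells, and 5 of 7 donor libraries lay below the lowest host library. Tlr4 was higher in donor cells in 6 of 7 animals but did not pass in either fit (0.15 ± 0.15 without the block, 95% interval -0.17 to 0.47). Tlr2 (-0.08), Tlr5 (-0.31), Tlr6 (0.28) and Tlr13 (-0.11) did not pass in either fit.

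**Figure D3:**
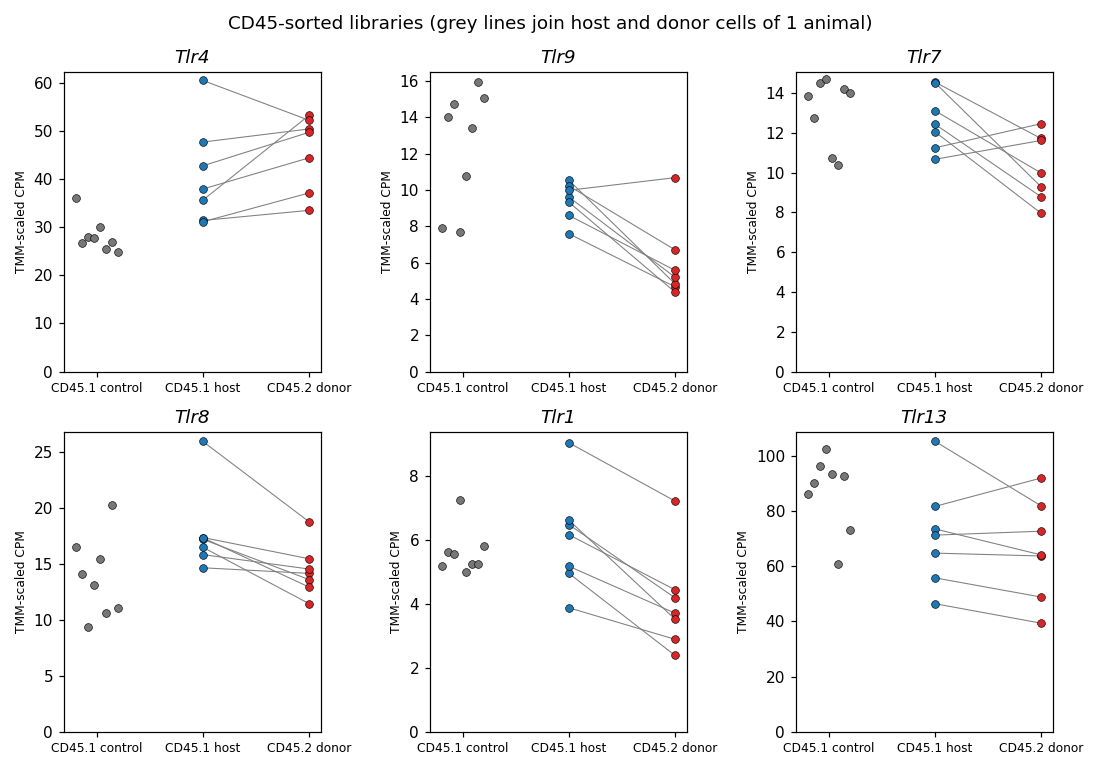
TMM-scaled CPM (linear axes from 0) of 6 members in CD45.1 control, CD45.1 host and CD45.2 donor libraries; points are libraries, and grey lines join host and donor cells of 1 animal. Tlr4 lies above most controls in host and donor cells, while the Tlr9 line falls from host to donor in 6 of 7 animals and the Tlr1 and Tlr8 lines in all 7.

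In CD11b cells at 52 weeks no member passed, and most members had lower values in transplanted mice. Of 10 members tested 0 were called by edgeR, against 0% of 15257 genes; 6 had an unadjusted p below 0.05, as did 2506 of the genes tested, and DESeq2 called 291 genes and 1 member, Tlr5, and limma-voom called 0 members. The libraries of the groups did not overlap at 5 members, all lower (Tlr4, Tlr5, Tlr6, Tlr8 and Tlr13), against 11.9% of all genes lower without overlap, and at 0 members higher, against 12.2% (24.1% in either direction). In TPM Tlr6 overlapped and Tlr1 was higher without overlap.

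Tlr5, the flagellin receptor, stood at 27.7, 33.7 and 35.7 CPM in the 3 controls and 13, 19.7 and 23.2 in the 3 transplanted mice, with N129 the lowest (log2 -0.80 ± 0.20, 95% interval -1.26 to -0.34, edgeR adjusted p = 0.270; DESeq2 -0.81, adjusted p = 0.0183). Tlr8 stood at 45.9, 50.4 and 52.1 CPM in controls and 30.5, 38.1 and 39.2 in transplanted mice (log2 -0.46 ± 0.12, edgeR adjusted p = 0.270). Tlr13 stood at 159.7, 162.8 and 194.1 CPM in controls and 107.2, 134.1 and 140.2 in transplanted mice (log2 -0.44 ± 0.13, edgeR adjusted p = 0.270). All 3 transplanted libraries were below all 3 controls at these genes, by differences that did not pass after adjustment over all genes.

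Tlr4 stood at 46.4, 47.5 and 57.5 CPM in controls and 30.9, 42.8 and 45.7 in transplanted mice, where the highest lay just under the lowest control (log2 -0.34 ± 0.15, edgeR adjusted p = 0.311). Tlr1 had higher values in transplanted mice, 8.59, 11.3 and 16.8 CPM against 6.22, 7.30 and 9.83, and the groups overlapped (log2 0.65 ± 0.27, edgeR adjusted p = 0.290). Tlr3 had 20 to 120 counts per library in transplanted mice and 6 to 22 in controls (log2 1.99 ± 0.66, edgeR adjusted p = 0.270). On deposited TPM Tlr3 stood at 0.14, 0.43 and 0.76 in transplanted mice and 0.07, 0.15 and 0.58 in controls, a smaller difference with overlap. Tlr6 stood at 17.9, 18.4 and 22.4 CPM in controls and 15.4, 17.7 and 17.8 in transplanted mice, groups that lie close together without overlap (log2 -0.21 ± 0.13). Tlr2 (-0.41 ± 0.15), Tlr7 (-0.09 ± 0.13) and Tlr9 (-0.15 ± 0.22) did not pass, and the groups overlapped at Tlr2, Tlr7 and Tlr9. The summed level of 14 mature neutrophil markers was 134800 to 156900 CPM in controls and 79440 to 132500 in transplanted mice, without overlap, and that of 8 neutrophil precursor markers 5382 to 6086 and 6753 to 7880. Summed markers were also higher without overlap for monocytes (2495 to 2567 CPM in controls, 2631 to 2925 in transplanted mice), macrophages (483.4 to 522.8 and 536.1 to 625.4) and T and NK cells (95.25 to 97.63 and 110.3 to 213.9); the part of these sums in the results was not tested.

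Tlr4 lay higher in host CD45.1 cells at about 7 months and lower in CD11b cells at 52 weeks, and the difference between the effects was tested in a fit of all 21 libraries that was added after these values were seen. These sorts differ in library kit, gate, age of the transplant and mix of sexes, which cannot be told apart in this difference. The CD11b effect minus the host effect was -0.93 ± 0.24 at Tlr4 (edgeR adjusted p = 0.0992) and -0.88 ± 0.26 at Tlr8 (edgeR adjusted p = 0.146). No member passed by edgeR, against 17 of 15639 genes (0.109%) called. DESeq2 called 264 genes over all, and Tlr4 was the 1 member among them (-0.91, adjusted p = 0.0304).

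In stroma no member passed. Of 10 members tested 0 were called by edgeR, DESeq2 or limma-voom, against 1.49% of 26191 genes by edgeR (0.466% higher, 1.03% lower), and Tlr1 had the single unadjusted p below 0.05. Without the stroma library of N032 4 members had one and 0 passed, in a fit that called 593 genes against 391 with every library. Without any other single library 0 or 1 member had one. The share of all genes with an unadjusted p below 0.05 was not counted in stroma. Tlr1 stood at 0.158, 0.601 and 1.32 CPM in control stroma and 0.876, 1.11 and 1.91 in stroma of transplanted mice (lowest, median, highest), with all 7 transplanted libraries above the control median and the groups overlapping (log2 0.89 ± 0.38, edgeR adjusted p = 0.524). Tlr3 stood at 7.46, 12.5 and 16.2 CPM in control stroma and 1.54, 13.6 and 16.5 in stroma of transplanted mice (log2 0.08 ± 0.33). Tlr4 stood at 17.5, 21.8 and 30.0 CPM in control stroma and 3.60, 31.4 and 48.9 in stroma of transplanted mice (log2 0.37 ± 0.34).

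The stroma library of N032 held the lowest values of Tlr3 and Tlr4, and was the lowest of its group at 7 members. In stroma of transplanted mice the lowest summed mesenchymal markers (13 genes) were 2102 CPM, against 5821 to 14670 in controls. The lowest sum was also below that of controls for every other marker list but T and NK cells. These lowest sums are not assigned to an animal here. Tlr9 had 2 to 35 counts per stroma library, and its log2 value of -0.46 ± 0.47 is not precise. Tlr2 (0.46 ± 0.34), Tlr5 (0.10 ± 0.25), Tlr6 (0.48 ± 0.32), Tlr7 (0.29 ± 0.40), Tlr8 (0.33 ± 0.37) and Tlr13 (0.59 ± 0.53) had intervals that held 0. Summed macrophage markers ran from 386.2 to 834 CPM in control stroma and from 187.3 to 707.6 in stroma of transplanted mice. Monocyte markers ran from 984.2 to 1708 and from 429.3 to 2050 CPM in the same order. Mature neutrophil markers (14 genes) had larger sums, from 5858 to 25620 and from 3403 to 37120 CPM. The part of these sums in the values of stroma was not tested.

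Tlr7, Tlr8 and Tlr13 are X-linked in the mouse, and females were set against males in the fit of the 15 host and control CD45.1 libraries. No member passed the test by sex: 0 of 9 were called by edgeR, DESeq2 or limma-voom, none had an unadjusted p below 0.05, and 0.163% of 14073 genes were called (0.0711% higher and 0.0924% lower in females). The female minus male log2 value was 0.15 ± 0.09 at Tlr7 (95% interval -0.05 to 0.35), 0.15 ± 0.16 at Tlr8 (-0.17 to 0.48) and 0.20 ± 0.14 at Tlr13 (-0.10 to 0.50). Tlr7 stood at 14.1 ± 0.284 CPM in control females (SD, n = 4) and 12.2 ± 2.01 in control males (n = 4). In stroma 0 of 10 members were called by these tools, against 0.367% of 26191 genes (0.241% higher, 0.126% lower), and Tlr5 had the single unadjusted p below 0.05 (-0.80 ± 0.25, edgeR adjusted p = 0.190).

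**Figure D4:**
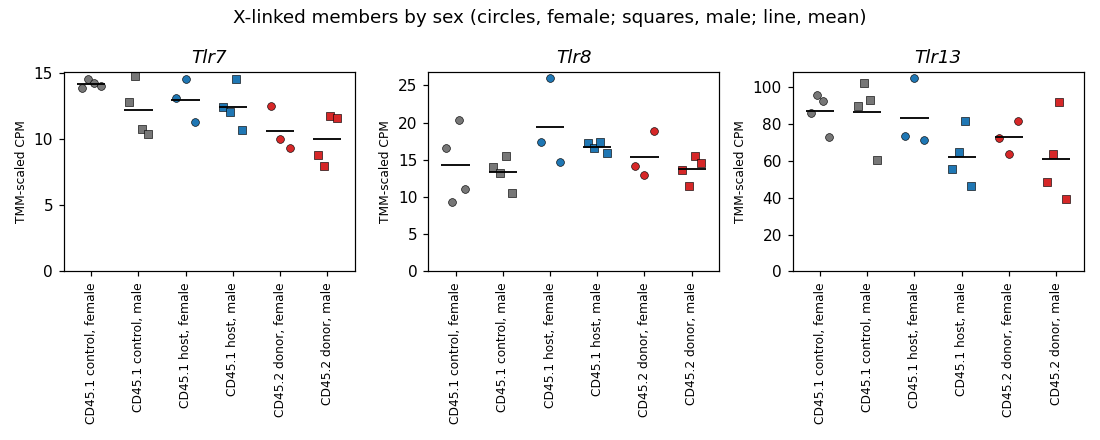
TMM-scaled CPM (linear axes from 0) of the X-linked members in CD45-sorted libraries, split by sex (circles are female, squares male and lines means). For donor cells this is the sex label of the mouse they were sorted from. The sexes overlap in every group plotted; Tlr13 in host cells has a mean of 83.3 CPM in females and 62.1 CPM in males.

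Beside the receptors, the proteins that fold, move and cut them were the group with most calls in host cells. Of 12 folding and trafficking genes 6 were higher and 0 lower in host cells against controls, where 8.61% of all genes were higher. In donor cells 3 were higher and 2 lower, near or below the 22.7% and 23% of all genes, and in donor against host cells 0 were higher and 6 lower, against 9.94% lower. The endosomal proteases that process the nucleic acid receptors led in host cells: Lgmn stood at 35.5 ± 4.23 CPM in controls and 52.9 ± 8.59 CPM in host cells (log2 0.55 ± 0.07, edgeR adjusted p = 1.05e-04), Ctss rose by 0.44 on the log2 scale and Ctsb by 0.25, as did Pld4, an endosomal nuclease, by 0.30. With day of euthanasia as a block, a fit that called 6.39% of all genes higher and 6.15% lower, 6 were higher and 1 lower: Pld4 did not pass (0.22, adjusted p = 0.0890), while Ctsl passed higher (0.31, adjusted p = 0.00877) and Slc15a4 lower (-0.22, adjusted p = 0.0358). Against host cells of the same mice, donor cells were lower at Pld3 (-0.36), Lgmn (-0.46), Pld4 (-0.28) and Ctss (-0.35). In donor cells against controls Pld3 (-0.41) and Slc15a4 (-0.30) fell and Ap3b1 (0.24) and Cnpy3, a folding helper of several receptors, (0.27) rose. These genes are also expressed by macrophages, whose summed markers are given above.

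Of the co-receptors, Cd36 fell and Lbp rose in both host and donor cells. Cd36, a scavenger receptor that aids Tlr2, fell in host cells from 9.33 ± 2.06 to 5.10 ± 0.885 CPM (log2 -0.87 ± 0.14, edgeR adjusted p = 8.95e-04) and in donor cells to 2.40 ± 0.767 CPM (log2 -1.98 ± 0.18, adjusted p = 1.29e-07). Lbp, which passes lipopolysaccharide to Cd14, rose by 0.33 in host and 0.56 in donor cells (log2). Of the 6 genes of this list 1 was higher and 1 lower in each of these comparisons. Of all genes 8.61% were higher and 7.82% lower in host cells. In donor cells 22.7% were higher and 23% lower, so the calls of this list there were below those shares. In donor against host cells 3 were lower, Ly86, Cd36 and Ly96, against 9.94% of all genes. Ly96, which encodes the MD-2 partner of Tlr4, stood at 2.08 ± 0.484 CPM in host and 1.35 ± 0.386 CPM in donor cells (log2 -0.64 ± 0.20, edgeR adjusted p = 0.0422).

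Negative regulators were called lower in host and donor cells, while adaptors and kinases were called in both directions. Of 12 genes tested from the list of negative regulators 5 were lower in host cells, against 7.82% of all genes. Among them were Peli1 (-0.15), Zc3h12a (-0.22), Dusp1 (-0.35) and Socs1 (-0.54). In donor cells 6 were lower, against 23% of all genes, led by Socs1 (-1.42), Peli1 (-0.40), Tnfaip3 (-0.85) and Dusp1 (-0.66). The list was set by name, and Peli1 in it is also described as promoting signals of these receptors. With day of euthanasia as a block 0 of the regulators passed in host cells and 8 in donor cells, where that fit called 22.4% of all genes higher and 23.4% lower.

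Of 20 adaptors and kinases 3 were higher and 1 lower in host cells and 3 higher and 6 lower in donor cells. The shares of all genes higher and lower were 8.61% and 7.82% in host cells and 22.7% and 23% in donor cells. Ikbke (0.31 and 0.38) and Tab1 (0.43 and 0.52) rose in both, Pik3ap1, which links receptors to PI3-kinase, fell in both (-0.34 and -0.70), Traf6 fell in donor cells (-0.30) and Ticam2 rose in host cells (0.16). With the day as a block 1 adaptor was higher and 2 lower in host cells, and Tab1 (adjusted p = 0.103) and Ticam2 (adjusted p = 0.101) did not pass. That fit called 6.39% of all genes higher and 6.15% lower. Of 10 transcription factors 1 was lower in host cells, Rel, an NF-kB subunit (-0.49), a share near that of all genes. In donor cells 5 were lower, led by Rel (-0.96), Irf8 (-0.94), Irf3 (-0.22) and Irf5 (-0.24), against 23% of all genes.

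Cytokine genes that these receptors are known to induce were next counted. In host cells 0 of 14 tested were higher and 3 lower, against 7.82% of all genes lower: Il1rn, the interleukin-1 receptor antagonist (104.8 ± 22.2 CPM in controls, 55.4 ± 15.9 in host cells, log2 -0.90 ± 0.17, edgeR adjusted p = 0.00238), Il12a (-0.65) and Ccl3 (-0.52). With the day as a block only Il1rn of these passed (-0.72, adjusted p = 0.00236). In donor cells 1 of 16 was higher, Nos2 (0.414 ± 0.181 CPM in controls, 2.29 ± 1.6 in donor cells), and 5 were lower, led by Ccl5 (-3.66), Il12a (-1.47) and Il10 (-1.27), against 22.7% of all genes higher and 23% lower. Ccl5, also a product of T and NK cells, stood at 47.0 ± 11.3 CPM in controls and 3.83 ± 2.15 in donor cells. Of 12 T and NK cell markers 11 were lower and 1 higher in donor cells, with a median log2 fold change of -3.78. Their summed level was 242.7 to 427.9 CPM in controls and 138.5 to 185.1 CPM in donor cells, where Nkg7, the marker that rose, stood at 139.8 ± 19.8 CPM against 97.7 ± 12 in controls. Among 16 other innate sensors 2 were higher and 1 lower in host cells (Nod1 0.25, Cgas 0.19, Naip5 -0.19), shares near those of all genes, and none of these 3 passed with the day as a block (adjusted p = 0.130, 0.0871 and 0.154 in that order). In donor cells 2 were higher and 5 lower, against 22.7% and 23% of all genes. Cgas (0.39) and Naip2 (0.29) were higher, and Aim2 (-0.47) and Ddx58 (-0.44) were among those lower. In donor against host cells Aim2 was lower (-0.40) and Cgas higher (0.20).

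Host and donor cells are paired by animal, and the counts above for donor against host cells come from the fit that leaves this out. In the paired fit more genes of these lists were lower in donor cells, as were more of all genes (18.5%). These were 7 of 16 innate sensors (1 without the block), 6 of 20 adaptors and kinases (1), 7 of 10 transcription factors (3), 6 of 12 negative regulators (3), 4 of 6 co-receptors (3) and 6 of 12 folding and trafficking genes (6). Of 15 cytokine genes 4 were lower and 3 higher with the block, and 3 and 0 without it.

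In stroma 1 of the 20 adaptors and kinases was called, Chuk, an NF-kB kinase, and 0 genes of the other lists. Of all genes 1.49% were called there. Chuk stood at 57.0 ± 9.72 CPM in controls and 37.1 ± 5.16 in transplanted mice (log2 -0.62 ± 0.13, edgeR adjusted p = 0.0212). With the day as a block Chuk did not pass (-0.57, adjusted p = 0.0915), while 1 of 17 cytokine genes tested was higher. That fit called 256 genes over all. In CD11b cells 0 genes of these lists were called, against 0% of all genes.

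**Figure D5:**
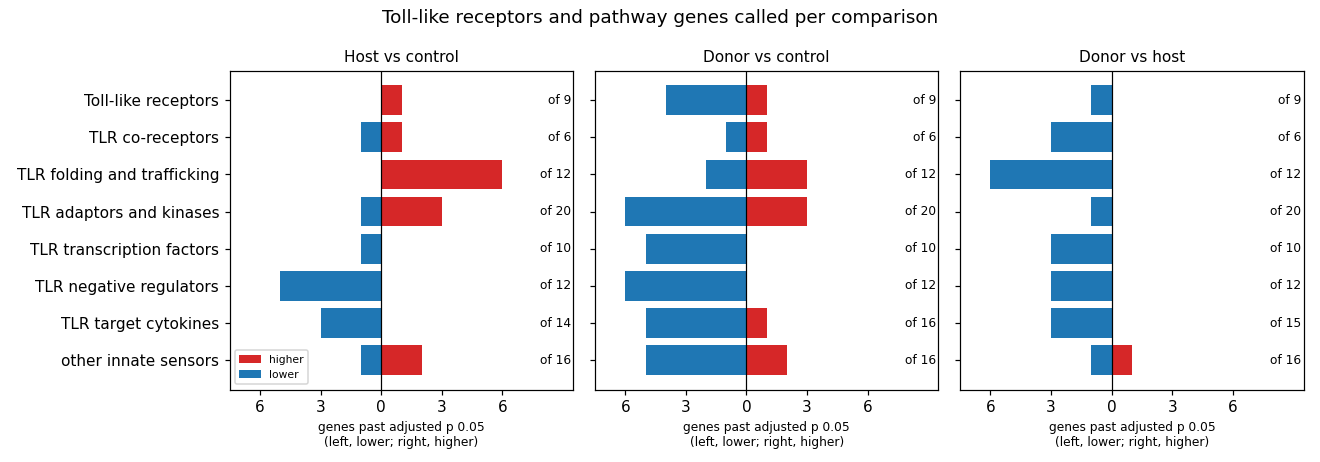
Number of genes past an adjusted p of 0.05 by edgeR in each list, lower to the left and higher to the right, with the number tested at the right edge, for 3 comparisons of CD45-sorted cells, each fitted with sex and without a block. Folding and trafficking genes are called higher in host cells (6 of 12) and lower in donor against host cells (6 of 12), and negative regulators are called lower in each comparison.

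Over the 22 CD45-sorted libraries, which share animals and groups, the named genes most like each member were found among 11255 genes by Pearson's r of log2 CPM, as a description. Tlr13 was closest to Tmcc1 (r = 0.96), Bmx (0.96) and Ipcef1 (0.96), and Tlr4 to Gk (0.95), Rab1a (0.94) and Slc31a1 (0.93). Tlr5 was closest to Cd300a (0.91), Tlr9 to Tesk1 (0.91) and Ccnd1 (0.89), and Tlr6 to Gadd45a (0.90). Tlr1 (Ap1s3, 0.76), Tlr2 (Serpinb6a, 0.80), Tlr7 (Cyp27a1, 0.83) and Tlr8 (Nceh1, 0.83) had weaker nearest neighbours. Between members the strongest values were -0.68 for Tlr4 with Tlr9 and 0.63 for Tlr6 with Tlr13.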

How the data were processed

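RNA sequencing was analysed from 43 libraries. The submitters' processing notes list STAR 2.7.3a as aligner, build GRCm39 and featureCounts of Subread 1.6.2, and RSEM 1.3.3 for CD11b libraries too. Gene counts as deposited are raw whole numbers, and the authors' TPM columns each total 999998.6 to 1000001.5. Which tool made the TPM, the annotation, the strand setting and the merging of stroma runs are not given in the sources used here.

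Each comparison was fitted on its groups with edgeR 4.0.16 in R 4.3.3 (filterByExpr, TMM, quasi-likelihood F-test, sex as covariate), with Benjamini-Hochberg adjustment over all genes tested and a threshold of 0.05. Levels are TMM-scaled CPM per sort, or TPM between genes. The fits were also run on counts simulated without pairing by animal or day, and no result given here rests on that run. Alternatives were DESeq2 1.42.0, limma-voom (limma 3.58.1), RLE scaling, other filters, limma-trend on log2 TPM with pseudocounts of 1 and 0.1, each sex alone, blocks and leaving out each library. Animals, by label, are the replicates. In the day-block fits of CD45-sorted cells and stroma, transplanted N032 and N005 and controls N288, N051 and N093 had no partner of the other group. The group differences of these fits rest on 5 same-day pairs. Donor and host cells of 1 animal are paired (correlation of deviations 0.17 to 0.51 in 7 pairs); mice killed on the same day gave -0.07 to 0.28 in host cells, -0.05 to 0.20 in donor cells, -0.02 to 0.45 in stroma and -0.05 to 0.08 in CD11b cells. All 10 members were described in every comparison, with up to 4 called genes of smallest p per pathway list and the 3 most correlated genes per member. The members and lists were chosen with earlier results of these data known. A fit of the difference between the CD11b and host effects was added after seeing the data.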

Additional observations from a re-analysis of the deposited data

Results flagged for a closer look

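In 10 of 50 sets of a member and a group of 7 or 8 libraries, 1 library lay far from the others (Dixon's test at the 95% level, which chance passes in about 1 of 20 sets). In host cells animal N269 was apart at Tlr6 (11.64 CPM) and Tlr8 (25.99 CPM). In donor cells N269 was apart at Tlr1 (7.215 CPM), N203 at Tlr5 (8.073 CPM) and N005 at Tlr9 (10.68 CPM). Among CD45.1 controls N051 was apart at Tlr1 (7.234 CPM), N277 at Tlr4 (36.15 CPM) and N093 at Tlr5 (12.4 CPM). In stroma N051 was apart among controls at Tlr7 (2.175 CPM) and N032 among transplanted mice at Tlr3 (1.538 CPM).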

How the results depend on the processing

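The numbers of calls over all genes moved most. With DESeq2 they were 750 in stroma, 291 in CD11b cells (1 member lower), 86 and 708 for sex in CD45.1 cells and stroma, and 264 for the difference between the CD11b and host effects (1 member). For that difference RLE scaling gave 34, no filter 95 and males alone 0. Without a filter CD11b cells gave 59 and sex in CD45.1 cells 65, and with at least 1 CPM the latter gave 15. On TPM with pseudocounts of 1 and 0.1 host against control gave 1263 (800 higher, 463 lower) and 1229 (776 higher, 453 lower), donor against host 1146 (201 higher, 945 lower) and 1142 (201 higher, 941 lower), CD11b cells 2 and 3, sex in CD45.1 cells 12 and 12 and sex in stroma 31 and 50; 1 member was lower in donor cells with either. Sex in stroma gave 48 by limma-voom and 15 in controls alone, and sex in CD45.1 controls alone 8. Males alone gave 479, 3027, 1136 and 125 genes for host, donor, donor against host and stroma, with 0 members higher in host cells and 1 lower in donor cells. Females alone gave 121, 450 and 0 genes for host, donor against host and stroma, with 0 members higher in host cells, 2 lower in donor cells and 0 lower in donor against host cells; these fits hold fewer samples.

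With the day of euthanasia as a replicate block stroma gave 256 genes and host cells 1 member lower, and with the animal as a replicate block donor against host gave 4605 genes and 4 members lower, which are paired. Signs also turned, each time at a value that did not pass. With the day block these were Tlr5 (0.17) and Tlr7 (0.032) in host cells and Tlr2 (0.077) and Tlr6 (0.0020) in donor cells. In females alone they were Tlr5 in host cells (0.20), Tlr6 in donor cells (0.0092) and Tlr4 in donor against host cells (-0.0011). In males alone they were Tlr7 in host cells (0.038), Tlr2 in donor cells (0.076), Tlr3 (-0.23) and Tlr9 (0.050) in stroma and Tlr9 in the difference of effects (-0.013). By limma-voom they were Tlr2 in donor cells (0.0013), Tlr3 in stroma (-0.082) and Tlr4 (0.12), Tlr7 (0.080) and Tlr9 (0.0022) by sex in stroma, and without a filter Tlr2 in donor cells (0.0016). On TPM with pseudocounts of 1 and 0.1 they were Tlr1 (-0.00084 and -0.0080) and Tlr7 (0.049 and 0.052) in host cells, Tlr2 in donor cells (0.039 and 0.040), Tlr3 (-0.092 and -0.23) and Tlr8 (-0.0051 and -0.048) in stroma, Tlr5 (0.014 and 0.030) and Tlr9 (-0.014 and -0.018) by sex in CD45.1 cells and Tlr4 by sex in stroma (0.0035 and 0.052). In controls alone they were Tlr6 by sex in CD45.1 cells (-0.074) and Tlr9 by sex in stroma (0.44). The cause was not tested.

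Leaving out each library gave 1527 (without host N014) to 2687 genes in host cells, with 1 to 2 members higher and 0 to 2 lower, 2 to 4 members lower in donor cells and 1 to 2 in donor against host cells. It gave 272 to 593 genes in stroma (the highest without N032), 0 to 28 in CD11b cells (the highest without N187), 13 to 34 and 24 to 216 for sex in CD45.1 cells and stroma, and 0 to 312 for the difference of effects (the highest without CD11b animal N116). Signs turned in the ranges of Tlr1 (-0.069 to 0.20), Tlr2 (-0.0026 to 0.13), Tlr5 (-0.15 to 0.12) and Tlr7 (-0.084 to 0.015) in host cells; Tlr2 (-0.10 to 0.041), Tlr6 (-0.28 to 0.041) and Tlr8 (-0.0038 to 0.16) in donor cells; Tlr3 (-0.016 to 0.25), Tlr5 (-0.088 to 0.22) and Tlr7 (-0.019 to 0.62) in stroma; Tlr7 (-0.21 to 0.020) and Tlr9 (-0.29 to 0.049) in CD11b cells; and Tlr7 in the difference of effects (-0.21 to 0.0043). By sex they were Tlr1 (-0.24 to 0.032), Tlr4 (-0.032 to 0.18), Tlr5 (-0.20 to 0.071), Tlr6 (-0.10 to 0.12) and Tlr9 (-0.079 to 0.094) in CD45.1 cells and Tlr4 (-0.26 to 0.036), Tlr7 (-0.21 to 0.18), Tlr9 (-0.35 to 0.079) and Tlr13 (-0.0043 to 0.52) in stroma. In donor cells Tlr1 passed only without N269 or control N093, and Tlr13 in 5 of 15 such fits.

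Counts were lowest at Tlr3 in CD45-sorted cells (0 to 9 per library), which was not tested there, and at Tlr9 in stroma (2 to 35), whose interval is wide.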

Other observations

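The summed level of the 10 members, on the TPM scale, was 214.9 ± 33.9 in CD45.1 controls (SD, n = 8), 227.3 ± 23.5 in host cells (n = 7) and 211.1 ± 17.5 in donor cells (n = 7). In CD11b cells it was 179.0 ± 2.94 in controls and 151.9 ± 10.4 in transplanted mice (n = 3 each). In stroma it was 47.4 ± 8.49 in controls (n = 8) and 60.1 ± 32.1 in transplanted mice (n = 7). These sums are led by Tlr2 and were not tested.

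Single animals stood at the end of their group's CPM range for several members at once. Among the 7 host libraries N269 was the highest at 8 members (Tlr1, Tlr2, Tlr3, Tlr4, Tlr5, Tlr6, Tlr8 and Tlr13), and N005 was the lowest at 6 (Tlr2, Tlr3, Tlr4, Tlr5, Tlr7 and Tlr13). In stroma of transplanted mice N032 was the lowest of 7 at 7 members and N204 the highest at 4. No reading of these positions was tested.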
